A study of Homo sapiens with 10 samples.

Results

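The comparison set RNA from *ZMAT3* knockout (*ZMAT3*-KO) cells against RNA from *ZMAT3* wild-type (*ZMAT3*-WT) cells of the human colorectal cancer line HCT116, and all 13029 genes of the deposited table were kept as its members. It used 6 of the 10 samples of the series, 3 cultures of each genotype. The cells of both groups carried the labels EV and unt, were per the labels not treated with a drug, and were grown in serum-containing medium. Both groups were derived from single cells after puromycin selection of the transfected culture, each of the groups is 1 clone, and the 3 replicates are cultures of that clone, so every p-value below measures the spread between cultures and a difference between the clones cannot be told apart from the effect of the edit. The knockout was made with a pair of CRISPR guides placed around the p53 response element inside an intron of *ZMAT3*, and according to the study the interval between them was not wholly removed, since only a short part next to a guide was lost.

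*ZMAT3* encodes a zinc finger protein that binds RNA and is switched on by the tumour suppressor p53. It is known to change the splicing and stability of its target transcripts and to hold back the growth of cancer cells. HCT116 cells keep a normal p53 gene, resemble epithelium of the large bowel, and express keratins, cadherins and other genes of simple epithelia.

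The guides are shown because they mark the region of *ZMAT3* that was targeted. Each is given from 5′ to 3′ in lower case, and the capitals mark the PAM next to it, the short motif that Cas9 needs in order to cut.
5′ guide: ccatctgccctccacgtgacaGGG
3′ guide: cattatgaattattattattAGG
In hg38 the 5′ guide matched the minus strand of chromosome 3 at 179071488 to 179071508 and the 3′ guide at 179070034 to 179070053, with 1434 bases between them. Both matches lie in intron 1 of ENST00000311417.7, the canonical *ZMAT3* transcript of GENCODE release 44, whose gene runs from 178960121 to 179072215 on the minus strand. The study's text counts a later intron. *ZMAT3* stood at 5.00, 5.20 and 5.26 log2 CPM in the *ZMAT3*-WT cultures and at 2.25, 2.34 and 2.2 in the *ZMAT3*-KO cultures, where CPM is the number of reads of a gene scaled to a common library total. The groups were far apart and the gene fell by 2.89 ± 0.07 (log2, SE, n = 3 against 3; adjusted p = 3.76e-12), yet a residual level remained in all 3 knockout cultures.

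Of the 12 markers fixed for the epithelium of the large bowel, 8 had a row in the table. The adhesion proteins *EPCAM* (8.51 to 8.56 log2 CPM in *ZMAT3*-WT and 8.54 to 8.58 in *ZMAT3*-KO) and *CDH1* (6.28 to 6.36 and 6.32 to 6.41) overlapped between the groups. The summed level of the 8 markers was 5770 to 6090 CPM in *ZMAT3*-WT and 3160 to 3250 CPM in *ZMAT3*-KO, and the keratins and *HNF4A* described below were the members that were called. None of 6 leukocyte and none of 4 endothelial markers had a row, 1 of 7 fibroblast markers did (*COL1A1*, 9.16 to 9.79 CPM against 10.4 to 10.9 CPM), and so did 1 of 6 erythroid markers (*HBG2*, 1.01 to 1.27 CPM against 0.0102 CPM, the lowest value of the table). The part of these markers in the results was not tested. The deposited values are log2 CPM that share 1 distribution across the libraries (the linear values of each sum to 999929 to 999931), so the sequencing depth is unknown and no counting interval can be given. Replicates correlated at r = 0.995 to 0.9961 across genes and libraries of different genotype at 0.9682 to 0.971.

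Of the genes that changed by at least 1.5-fold, most changed by less than 4-fold. A gene was called when its adjusted p was under 0.05 and its fold change at least 1.5. This held for 1168 genes (8.96%), of which 599 (4.6%) rose and 569 (4.37%) fell in *ZMAT3*-KO. Among them 1052, or 90.1%, changed by less than 4-fold and are here called mid-size: 535 rose (4.11% of all genes; median log2 change 0.79) and 517 fell (3.97%; median -0.82). By contrast, 64 genes rose and 52 fell by 4-fold or more. Small shifts were more common still. By the adjusted p alone 3734 genes (28.7%) were higher and 3925 (30.1%) lower, and between 1.2-fold and 1.5-fold 1359 of 1482 higher and 1250 of 1383 lower genes passed it. The median log2 change over all genes was -0.0052. Since the libraries were brought to 1 distribution, that step itself favours a median near 0 and a balance of rises and falls. Calls were concentrated among weakly expressed genes: of the 3258 genes with the lowest mean level 669 (20.5%) were called, against 113 (3.47%) of the 3257 with the highest.

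To describe what kinds of genes made up the mid-size changes, 67 classes were set out from gene symbol families and hand-written lists, and together these held 3993 genes and 413 of the 1052 mid-size calls. Each count below stands against the 4.6% of all genes called higher and the 4.37% called lower. Those shares mix all levels of expression, and the classes were not matched for level. In 46 classes the share of called members was above the 8.96% over all genes, and in 21 it was not.

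**Figure D1:**
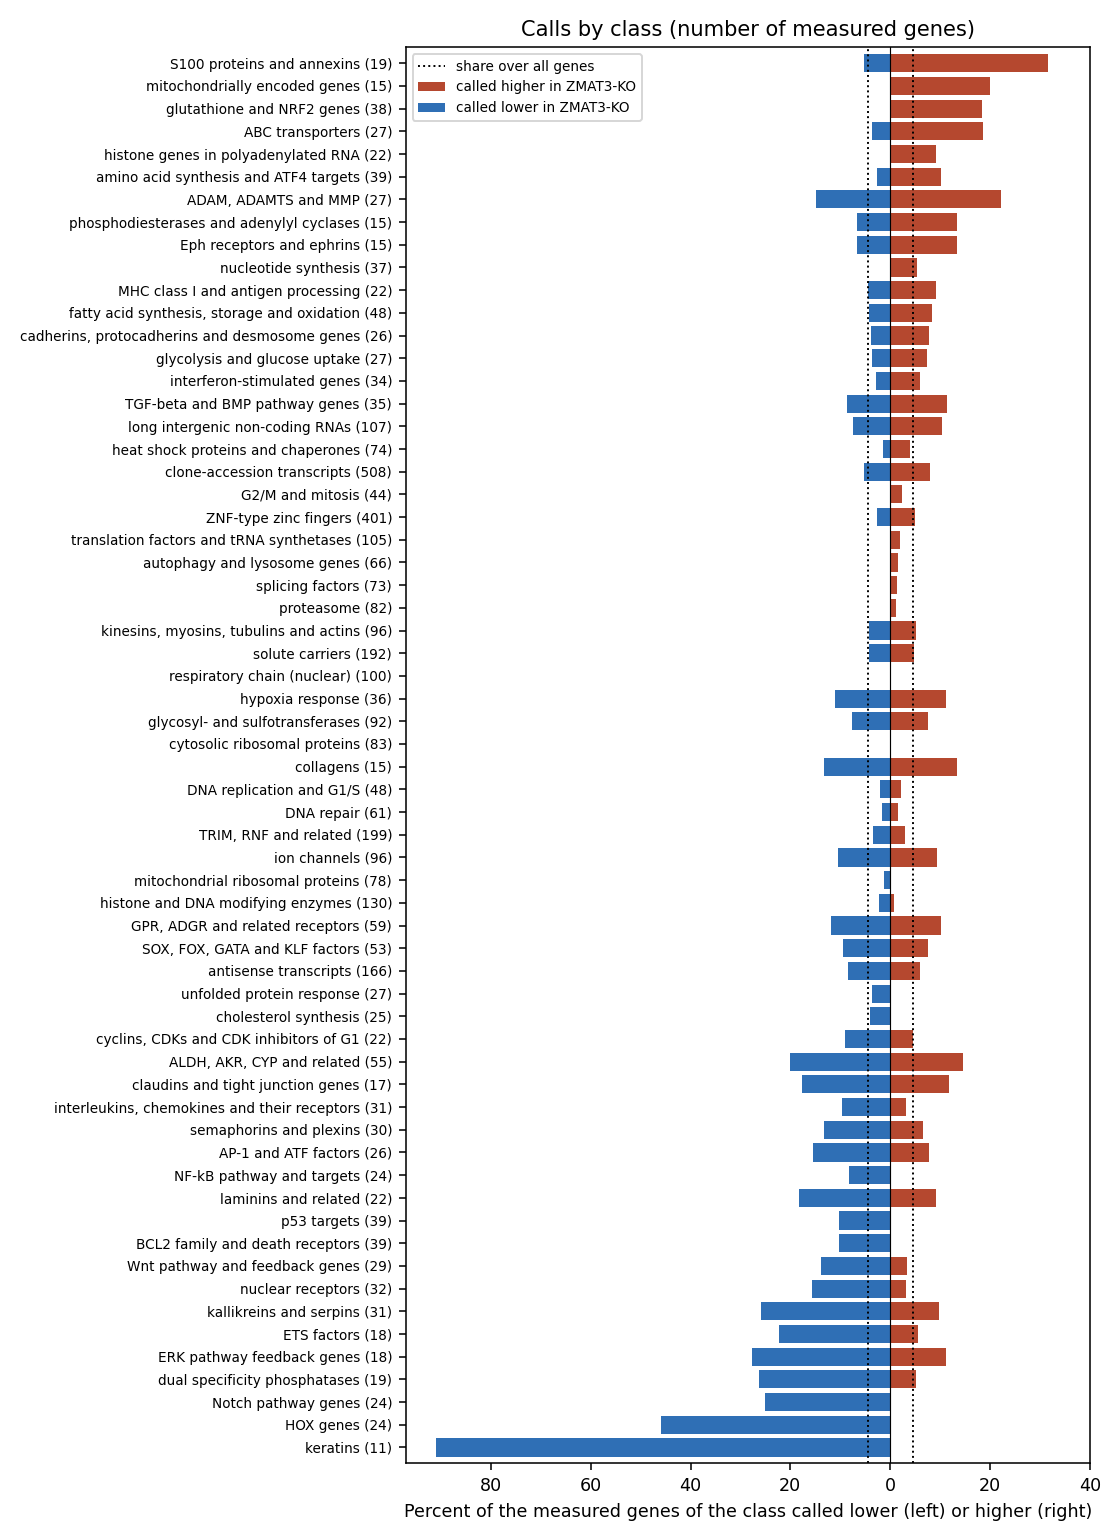
Percent of the measured genes of classes with at least 15 measured genes, and of keratins (rows, number of measured genes in parentheses) called higher (red, right) or lower (blue, left) in *ZMAT3*-KO. Dotted lines mark the share over all genes, 4.6% higher and 4.37% lower; keratins and HOX genes reach furthest to the left, with 10 of 11 and 11 of 24 genes, and the S100 and annexin class furthest to the right, with 6 of 19.

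Keratins, the intermediate filament proteins of epithelial cells, formed the class with the largest share of calls. Of 11 measured keratins 10 fell, none rose, and the median log2 change was -1.25. *KRT19*, a keratin of simple epithelia, stood at 9.64, 9.54 and 9.56 log2 CPM in *ZMAT3*-WT and at 7.85, 7.79 and 7.85 in *ZMAT3*-KO. All knockout cultures lay below all wild-type cultures, a difference of 3.37-fold (log2 change -1.75 ± 0.03, adjusted p = 1.82e-13). *KRT8* and *KRT18*, which pair with each other in simple epithelia and are the most abundant of the class, also fell. *KRT8* went from 11.72, 11.61 and 11.61 to 10.68, 10.71 and 10.73 log2 CPM (log2 change -0.94), and *KRT18* from 10.50, 10.45 and 10.49 to 9.66, 9.63 and 9.70 (log2 change -0.82). Both have processed pseudogenes whose reads can be hard to separate from theirs. *KRT20*, a keratin of differentiated gut epithelium, fell by 1.47 (log2) from 1.37, 1.15 and 1.43 log2 CPM, *KRT80* fell by 1.25 and *KRT222* by 0.77. *KRT23*, *KRT15* and *KRT13* fell by more than 4-fold, with log2 changes of -4.01, -2.92 and -2.74. *KRT13* was listed at the same -2.54 log2 CPM in all *ZMAT3*-KO libraries, a level of very few reads. *KRT7* passed with a log2 change of -0.69, but without *ZMAT3*-WT replicate 2 the change was -0.55 and with 1 CPM added before taking logs -0.42, both below the fold threshold. *KRT10*, the remaining member, was lower by 0.42 (log2), a change under the threshold. In bulk RNA, fewer cells that express a gene and less RNA per cell cannot be told apart.

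HOX genes, which encode transcription factors that lay out the body axis in the embryo and keep a positional pattern in adult tissue, were also lower as a class. Of 24 measured HOX genes 11 fell and none rose, with a median of -0.37. *HOXB3* stood at 1.65, 1.78 and 1.94 log2 CPM in *ZMAT3*-WT and at -0.01, 0.22 and -0.27 in *ZMAT3*-KO, a fall of 1.81 ± 0.15 (adjusted p = 6.17e-07). *HOXB8* fell from 4.25, 4.17 and 4.17 to 0.46, 0.55 and 0.41 log2 CPM and *HOXB4* from 3.71, 3.63 and 3.67 to -0.40, 0.36 and 0.23. These were the largest changes of the class, and the HOXB genes *HOXB6* (-1.04) and *HOXB5* (-0.85) fell with them. From the HOXA cluster *HOXA3* (-1.20), *HOXA4* (-0.98), *HOXA5* (-0.68), *HOXA6* (-0.67) and *HOXA10* (-0.66) fell, and from the HOXC cluster *HOXC5* (-0.84). The members that were not called included *HOXA11*, *HOXA13* and *HOXB13*, from the 5′ ends of the clusters, with log2 changes of 0.01, 0.003 and 0.23. By the adjusted p alone 16 of the 24 genes were lower and 2 higher, so some members that were not called were lower too. A pattern along the clusters was not tested. The call of *HOXA6* was lost without *ZMAT3*-KO replicate 3 (log2 change -0.57), and those of *HOXA5*, *HOXA6* and *HOXC5* when 1 CPM was added before taking logs (-0.58, -0.42 and -0.49).

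**Figure D2:**
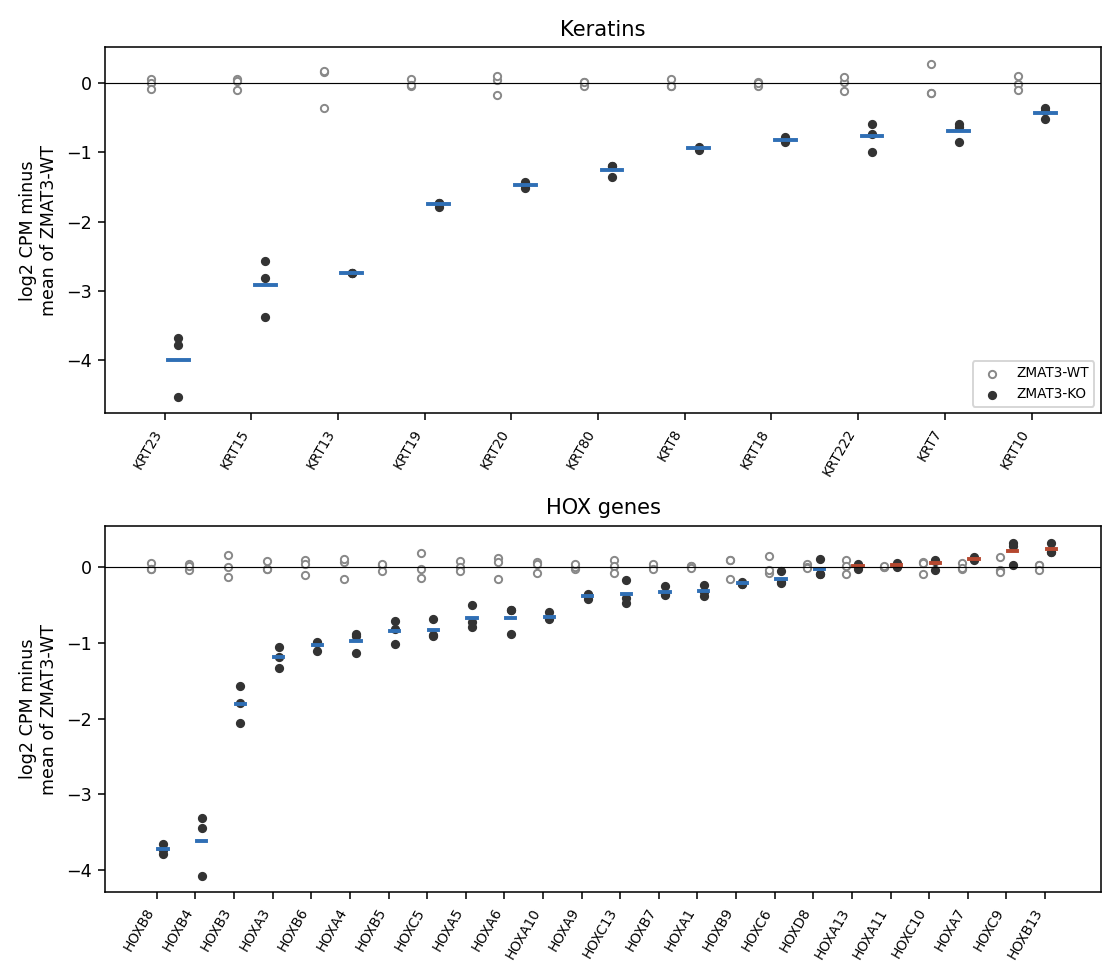
Level of each keratin (upper panel) and HOX gene (lower panel) in every library, as log2 CPM minus the mean of the *ZMAT3*-WT libraries; open points are *ZMAT3*-WT, filled points *ZMAT3*-KO, and coloured bars the *ZMAT3*-KO mean. All 11 keratins lie below 0 in *ZMAT3*-KO, down to -4.01 for *KRT23*, and 18 of the 24 HOX genes have a *ZMAT3*-KO mean below 0.

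Further families of transcription factors held calls in both directions. Among 32 nuclear receptors, ligand-regulated transcription factors and their relatives, 5 fell and 1 rose (18.8%, beside 8.96% over all genes). *HNF4A*, a receptor that maintains liver and gut epithelium, fell from 2.92, 2.94 and 3.08 to 1.47, 1.45 and 1.60 log2 CPM, or 2.78-fold (adjusted p = 1.61e-08). *NR5A2*, which acts in the same tissues, fell by 2.03 (log2), just over 4-fold, and *NR1D1*, a repressor of the circadian clock, by 1.06. *NR4A1* and *NR4A2*, orphan receptors that are induced within minutes of a stimulus, fell too (log2 changes of -1.97 and -1.68). *NR4A1* was the more abundant, with 6.82, 6.45 and 6.38 log2 CPM in *ZMAT3*-WT and 4.61, 4.47 and 4.67 in *ZMAT3*-KO. The member that rose was *NR2F1* (log2 change 0.96), which went from 6.74, 6.64 and 6.65 to 7.62, 7.65 and 7.65. Of 53 SOX, FOX, GATA and KLF factors 5 fell and 4 rose: *SOX9*, a factor of intestinal crypt cells, fell from 6.28, 6.26 and 6.26 to 5.22, 5.35 and 5.30 log2 CPM, and *FOXP2* rose by 1.13 (log2) from -0.78, -0.36 and -0.36, a call lost with 1 CPM added (0.58). Of 18 ETS factors 4 fell and 1 rose, among them *ETV7* (-1.39), *ETS1* (-0.74) and the epithelial factor *ELF3* (-0.65), and *ETV5* (0.67).

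The AP-1 family, dimers of *FOS*, *JUN* and ATF proteins, did not move as one. Of 26 measured members 4 fell and 2 rose. *FOS* stood at 7.71, 7.60 and 7.63 log2 CPM in *ZMAT3*-WT and at 6.32, 6.11 and 6.33 in *ZMAT3*-KO, 2.63-fold lower (adjusted p = 2.67e-10). *FOSB* (log2 change -1.39) and *ATF3* (-1.21) fell with it, and *JUNB* fell by 0.63. *JUN* went the other way, from 4.48, 4.34 and 4.38 to 5.03, 4.99 and 5.03 log2 CPM (log2 change 0.62), and *CREB5* rose by 1.44. The calls of *JUNB* and *JUN* sat at the edge of the threshold and were lost without *ZMAT3*-WT replicate 1 (-0.58) and without *ZMAT3*-WT replicate 2 (0.58), respectively.

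In the Notch pathway, through which neighbouring cells settle each other's fate, 6 of 24 measured genes fell and none rose. *HES1*, the main target gene and a repressor of secretory differentiation in the gut, stood at 3.88, 3.86 and 3.78 log2 CPM in *ZMAT3*-WT and at 2.48, 2.40 and 2.35 in *ZMAT3*-KO. It was 2.69-fold lower with no overlap (log2 change -1.43 ± 0.06, adjusted p = 1.31e-09). The HES family members *HES2* (-0.63) and *HES6* (-0.62), the coactivator *MAML3* (-0.96), the Notch-modifying glycosyltransferase *MFNG* (-0.84) and the ubiquitin ligase *DTX4* (-0.68) fell too. The receptors *NOTCH1*, *NOTCH2* and *NOTCH3* and the ligands *JAG1* and *JAG2* were not called, with log2 changes of -0.19, 0.26, 0.05, 0.19 and -0.20. *HES6* fell short of the fold threshold without *ZMAT3*-WT replicate 1 (-0.55) or *ZMAT3*-KO replicate 2 (-0.57), and with 1 CPM added so did *HES2*, *MAML3* and *MFNG* (-0.55, -0.43 and -0.37).

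Dual specificity phosphatases remove phosphate from MAP kinases and several are themselves induced by them, as a brake. Of 19 measured 5 fell and 1 rose. *DUSP5* and *DUSP6*, which act on ERK, fell from 6.86, 6.81 and 6.70 to 5.77, 5.74 and 5.71 log2 CPM and from 6.49, 6.58 and 6.50 to 5.69, 5.67 and 5.65. The knockout cultures were 2.07-fold and 1.8-fold lower. *DUSP2* (-0.87), *DUSP1* (-0.69) and *DUSP4* (-0.66) fell by less. *DUSP8* rose by 0.62, a call lost without *ZMAT3*-WT replicate 2 (0.56) and with 1 CPM added (0.57). In the wider list of 18 genes of ERK feedback, which shares *DUSP4*, *DUSP5* and *DUSP6* with that family, 5 fell and 2 rose, and 12 were lower by the adjusted p alone. *IER3*, an early response gene of this pathway, went from 8.74, 8.66 and 8.65 to 7.92, 7.82 and 7.89 log2 CPM. *RGS2*, which shuts off G protein signals, was one of the 10 mid-size genes with the smallest adjusted p among those that fell: 5.63, 5.67 and 5.64 against 4.12, 4.01 and 4.04 log2 CPM, 3.01-fold lower.

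Phosphodiesterases, adenylyl cyclases and G protein-coupled receptors were called in both directions. Of 15 phosphodiesterases and adenylyl cyclases, which break down and make cyclic nucleotides, 2 rose and 1 fell. *PRKACB*, a catalytic subunit of protein kinase A, which cyclic AMP activates, stood at 6.34, 6.46 and 6.43 log2 CPM in *ZMAT3*-WT and at 8.26, 8.28 and 8.26 in *ZMAT3*-KO, 3.63-fold higher (adjusted p = 1.82e-13). *PDE4B*, which breaks cyclic AMP down, rose from 5.55, 5.54 and 5.58 to 6.58, 6.67 and 6.58, and *PDE4D* was higher by 0.79 (log2), whereas the cyclic GMP enzyme *PDE5A* fell by 0.95. *HTR7*, a serotonin receptor coupled to adenylyl cyclase, rose from 5.18, 5.32 and 5.29 to 6.77, 6.74 and 6.74 log2 CPM. It was 1 of 6 receptors that rose in a class of 59 G protein-coupled receptors, of which 7 fell, among them *GPRC5A* (-1.09) and the prostaglandin receptor *PTGER2* (-1.06). With 1 CPM added *PDE4D* and *PTGER2* came under the fold threshold (0.51 and -0.46).

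Calls in the TGF-beta class went in both directions and those in the Wnt class were mostly lower, each on a few genes. Of 35 TGF-beta and BMP genes 4 rose and 3 fell (20%, beside 8.96% over all genes). *SMAD3*, which carries the TGF-beta signal to the nucleus, stood at 6.85, 6.83 and 6.87 log2 CPM in *ZMAT3*-WT and at 5.95, 5.98 and 5.96 in *ZMAT3*-KO, 1.85-fold lower. The activin subunit gene *INHBB* fell from 0.05, -0.16 and 0.23 to -2.0, -1.47 and -2.16, and *GDF11* rose by 0.73. Of 29 Wnt genes 4 fell and 1 rose (17.2%). By the adjusted p alone 9 Wnt genes were higher and 9 lower, and the median was -0.06. *RNF43*, which removes Wnt receptors from the cell surface, fell from 4.96, 5.07 and 5.04 to 4.21, 4.21 and 4.25 log2 CPM, and the secreted Wnt antagonist *DKK1* fell by 3.18 (log2).

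Secreted and surface proteases were called in both directions. Of 31 kallikreins, serpins and other serine proteases 8 fell and 3 rose (35.5% called, beside 8.96% over all genes). *KLK6* stood at 5.26, 5.27 and 5.31 log2 CPM in *ZMAT3*-WT and at 3.73, 3.72 and 3.79 in *ZMAT3*-KO, 2.89-fold lower (adjusted p = 1.54e-11), and its neighbours *KLK10* (-1.10), *KLK8* (-0.92) and *KLK7* (-0.81) fell too. The protease inhibitor *SERPINB1* fell from 5.10, 5.09 and 5.09 to 4.15, 4.14 and 4.19 log2 CPM. *TMPRSS13*, a protease of the cell membrane, rose by 1.56 (log2) from a low level of -0.75, -1.03 and -1.11 log2 CPM. Of 27 ADAM, ADAMTS and matrix metalloproteinase genes 6 rose and 4 fell (37%). *MMP14*, a membrane-bound enzyme that cuts collagen and activates other metalloproteinases, rose from -1.32, -0.43 and -1.04 to 2.97, 2.91 and 2.93 log2 CPM, whereas the procollagen-processing enzyme *TLL1* fell by 1.47 (log2) and *ADAMTS16* by 1.45. With 1 CPM added the change of *ADAMTS16* was -0.58, under the threshold.

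Matrix and adhesion genes went both ways. *THBS1*, a matrix glycoprotein, fell from 4.77, 4.89 and 4.77 to 3.45, 3.53 and 3.36 log2 CPM, and fibronectin, *FN1*, by 0.88 (log2). *COL9A3* fell by 1.17 and *COL4A5*, a chain of basement membrane collagen, rose by 1.09. Of 13 integrins *ITGB4*, the laminin-binding subunit of hemidesmosomes, rose from 6.75, 6.78 and 6.79 to 7.73, 7.75 and 7.74 log2 CPM, *ITGA2* rose by 0.64, and *ITGB8*, which activates latent TGF-beta, fell by 1.52 from 1.72, 1.38 and 1.73. Among 17 tight junction genes 3 fell and 2 rose: *OCLN*, a membrane protein of the junction, fell from 5.38, 5.51 and 5.46 to 4.63, 4.65 and 4.59. *EZR*, which ties the membrane of microvilli to actin, was among the most abundant genes that fell, from 10.88, 10.89 and 10.92 to 9.99, 9.98 and 9.98 log2 CPM (1.89-fold, adjusted p = 1.19e-11). *PALLD*, a scaffold of actin bundles, rose from 8.16, 8.21 and 8.22 to 9.74, 9.74 and 9.75, 2.91-fold higher.

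S100 proteins and annexins bind calcium and, in the case of annexins, membranes. Of 19 measured 6 rose and 1 fell, and 15 were higher by the adjusted p alone. *S100A4*, known for its part in cell motility, stood at 5.32, 5.19 and 5.28 log2 CPM in *ZMAT3*-WT and at 6.89, 6.83 and 6.95 in *ZMAT3*-KO, 3.09-fold higher (adjusted p = 8.01e-12). *S100A14* rose by 2.29 (log2) from 6.13, 6.11 and 6.09 log2 CPM, *S100A3* by 0.80 and *S100A16* by 0.72. *ANXA1* rose from 8.54, 8.61 and 8.65 to 9.28, 9.34 and 9.36 log2 CPM, and *ANXA3* was the member that fell, from 7.70, 7.63 and 7.73 to 6.73, 6.71 and 6.74. The S100 genes called here lie together on chromosome 1, in a run of 13 neighbouring measured genes from *S100A11* to *SLC27A3* whose median was 0.39.

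**Figure D3:**
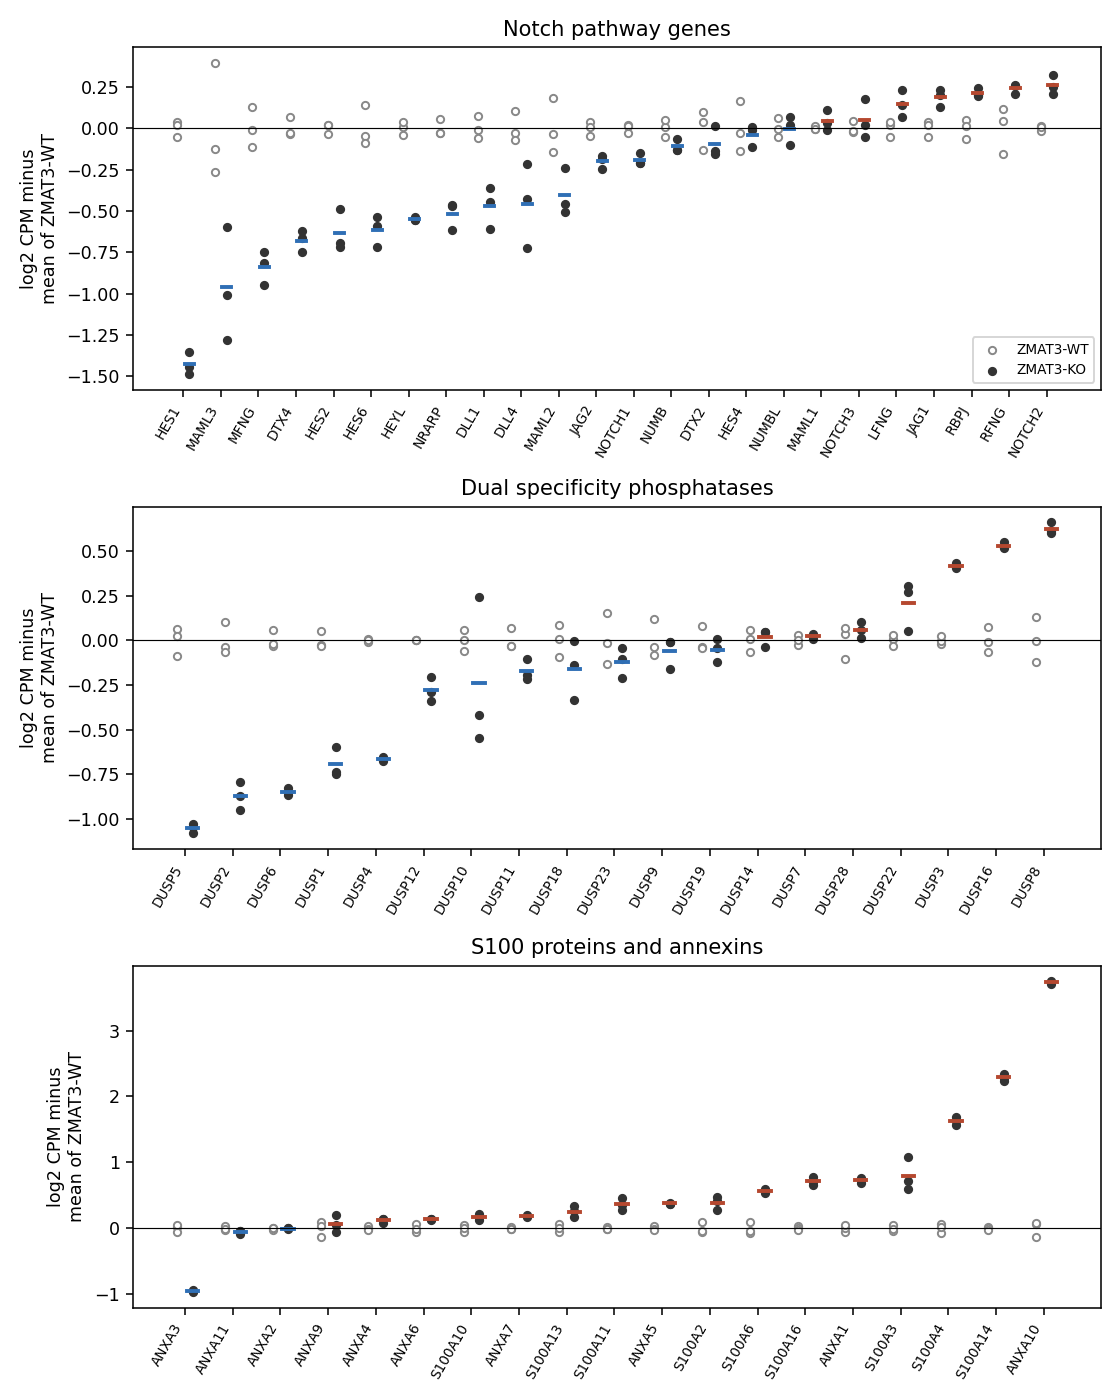
Level of each gene in every library, as log2 CPM minus the mean of the *ZMAT3*-WT libraries, for Notch pathway genes, dual specificity phosphatases, and S100 proteins with annexins; open points are *ZMAT3*-WT, filled points *ZMAT3*-KO, and coloured bars the *ZMAT3*-KO mean. *HES1* (-1.43) and *DUSP5* (-1.05) lie lowest in the first and second panels, and *ANXA3* (-0.96) stands alone below the other genes in the third.

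Guidance cues and their receptors, first known from growing axons and also active in epithelia, were called in 6 of 30 cases. *PLXNA2*, a semaphorin receptor, fell by 1.72 ± 0.22 (log2), from 0.46, 0.56 and 0.37 to -1.08, -1.10 and -1.59 log2 CPM. The coreceptor *NRP2* (-0.91) and the netrin *NTN4* (-1.03) fell, while the ligand *SEMA3A* rose from 3.85, 3.83 and 3.89 to 4.72, 4.76 and 4.76 and the receptor *PLXNB1* by 0.69. Of 15 Eph receptors and ephrins 2 rose and 1 fell. *EPHB3*, a receptor of crypt cells, rose from 2.45, 2.45 and 2.42 to 3.36, 3.26 and 3.43 log2 CPM, *EPHA10* by 0.87, and *EPHA2* fell by 0.60 at the edge of the threshold, where leaving out *ZMAT3*-KO replicate 3 ended its call (-0.58).

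Channels and carriers of the cell membrane changed in both directions. Of 96 ion channel genes 9 rose and 10 fell, 19.8% in all beside 8.96% over all genes. *ANO1*, a calcium-activated chloride channel, fell by 1.66 (log2), *SCNN1A*, a subunit of the epithelial sodium channel, by 1.08, and *SCN3A*, a voltage-gated sodium channel, from 1.00, 1.09 and 1.23 to -1.23, -0.60 and -0.70 log2 CPM. The potassium channels *KCND3* (0.92) and *KCNQ3* (1.31) rose, the latter from only -1.20, -1.10 and -0.98 log2 CPM, so that it lost its call with 1 CPM added (0.56). Of 192 solute carriers 9 rose and 8 fell, a share of 8.85% that was close to the background. *SLC16A6*, a monocarboxylate carrier, fell by 1.44, and *SLC26A7*, an anion exchanger, rose from -0.23, -0.70 and -0.21 to 1.56, 1.64 and 1.31.

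Enzymes that build and trim sugar chains gave 7 rises and 7 falls among 92 measured. *GALNT5*, which starts mucin-type O-glycans, fell from 2.94, 3.20 and 3.11 to 1.08, 1.34 and 1.36 log2 CPM, 3.54-fold. *FUT8*, the core fucosyltransferase of N-glycans, fell by 0.77 (log2). The sialyltransferases *ST6GALNAC2* (1.25), *ST6GAL1* (1.11) and *ST3GAL3* (0.77, or 0.43 and no longer called with 1 CPM added) rose. *ST6GALNAC2* went from 0.59, 1.06 and 0.57 to 1.94, 2.13 and 1.90 log2 CPM, and *ST6GAL1* from 4.40, 4.36 and 4.34 to 5.50, 5.49 and 5.44.

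Among 96 genes of kinesins, myosins, tubulins and actins 5 rose and 4 fell, near the background. The tubulin *TUBA1A* (1.14) and the kinesin *KIF13A* rose, *KIF13A* from 4.37, 4.42 and 4.44 to 5.72, 5.76 and 5.78 log2 CPM (2.53-fold, adjusted p = 1.68e-11). The smooth muscle actin gene *ACTA2* was among those that fell (-0.66), a call lost with 1 CPM added (-0.51).

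Genes of cell death and of immune signals were called in small numbers. Of 39 genes of the *BCL2* family and death receptors 4 fell (10.3%, beside 8.96% over all genes), among them *TNFRSF10C* and *TNFRSF10D*, decoy receptors that bind TRAIL without passing on a death signal. *TNFRSF10C* stood at 1.74, 1.60 and 1.91 log2 CPM in *ZMAT3*-WT and at 0.49, 0.28 and -0.01 in *ZMAT3*-KO, and *TNFRSF10D* was lower by 0.61 (log2). Of 31 interleukin and chemokine genes 3 fell and 1 rose (12.9%). *LIF*, a cytokine of the IL-6 family, fell from 3.46, 3.44 and 3.38 to 2.39, 2.57 and 2.41, and *CSF1* by 0.69, a call lost with 1 CPM added (-0.44). The gene that rose was *IL6R* (1.78). Of 34 interferon-stimulated genes 2 rose and 1 fell (8.82%), and of 24 NF-kB genes 2 fell (8.33%), *IER3* and *BIRC3*, the latter a call lost with 1 CPM added (-0.50) and also counted among the death genes.

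Enzymes that modify histones and DNA were called in 4 of 130 cases, 3.08% beside 8.96% over all genes. *HDAC9*, a deacetylase, fell from 1.06, 1.33 and 1.23 to 0.23, 0.36 and 0.14 log2 CPM, *CBX7*, a reader of polycomb marks, by 0.75 and *CHD5* by 0.70, and *SIRT2*, a deacetylase found mostly in the cytoplasm, rose from 3.72, 3.66 and 3.81 to 4.64, 4.53 and 4.69. Of 199 ubiquitin ligase genes of the TRIM, RNF and related families 6 rose and 7 fell. *CUL7*, a cullin scaffold, rose from 3.88, 3.86 and 3.79 to 5.19, 5.28 and 5.24, 2.63-fold, and *TRIM15* fell by 1.28.

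The calls among genes that protect against oxidants were all higher, and those among drug and lipid exporters were higher with 1 exception. By the adjusted p alone, 20 genes of the first class were higher and 8 lower. Of 38 genes of glutathione and the NRF2 response, which NRF2 switches on under oxidative stress, 7 rose and none fell. *SLC7A11*, which imports cystine for glutathione synthesis, stood at 4.94, 5.14 and 5.11 log2 CPM in *ZMAT3*-WT and at 5.99, 6.12 and 6.06 in *ZMAT3*-KO, 1.99-fold higher (adjusted p = 7.08e-09). The exporters *ABCC1* (0.77), *ABCC2* (0.70) and *ABCC3* (1.08) and the aldo-keto reductase *AKR1C3* (1.56) rose with it. The ferritin genes *FTH1* and *FTL* rose by 0.59 each, at the edge of the threshold: leaving out *ZMAT3*-WT replicate 2 or 3 or *ZMAT3*-KO replicate 1 put both under it (0.56 to 0.58), as did leaving out *ZMAT3*-KO replicate 3 for *FTH1* (0.58), and *FTH1* shares sequence with many pseudogenes. Among 27 ABC transporters 5 rose and 1 fell (10 higher and 8 lower by the adjusted p alone). As a class they were not higher, with 11 of 27 above 0 and a median of -0.04. *ABCC1*, *ABCC2* and *ABCC3* are counted in both classes. The ABC transporter that fell was *ABCB1*, the P-glycoprotein drug pump, with 2.51, 2.74 and 2.59 log2 CPM in *ZMAT3*-WT and 1.74, 1.88 and 1.82 in *ZMAT3*-KO.

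Enzymes that process retinoids, steroids and aldehydes were called higher in 8 and lower in 11 of 55 cases, or 34.5%. *CYP26A1*, which degrades retinoic acid, fell by 1.90 ± 0.24 (log2) from 0.32, 0.27 and 0.61 log2 CPM to -1.74, -1.19 and -1.59. *DHRS3*, which reduces retinal, fell from 6.07, 6.0 and 5.96 to 4.94, 4.77 and 4.87. *ALDH1A3*, which makes retinoic acid, fell by 2.67 (log2) from 8.89, 8.94 and 8.96 log2 CPM, and was the most abundant of the 3. The sulfotransferase *SULT1C2* rose by 1.25 and *ALDH3A1* by 1.26, the latter a call lost with 1 CPM added (0.58).

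Hypoxia and amino acid genes gave mixed counts. Of 36 genes of the hypoxia response 4 rose and 4 fell. *CA12*, a carbonic anhydrase of the cell surface, rose from 2.61, 2.67 and 2.65 to 4.51, 4.64 and 4.44 log2 CPM (3.7-fold), and *NDRG1* was 1.82-fold higher, whereas the transcriptional repressors *BHLHE40* and *BHLHE41* were 2.26-fold and 2.84-fold lower and the peptide hormone gene *ADM* 2.25-fold lower. Of 39 genes of amino acid synthesis and the *ATF4* response 4 rose and 1 fell, with *CHAC1* (1.43), a glutathione-degrading enzyme, and *SLC1A4* (1.01), a neutral amino acid transporter, leading those that rose. Of 48 genes of fatty acid metabolism 4 rose and 2 fell. *ACSL5*, which activates long-chain fatty acids in the gut, stood at 7.48, 7.52 and 7.51 log2 CPM in *ZMAT3*-WT and at 8.23, 8.24 and 8.24 in *ZMAT3*-KO, 1.66-fold higher (adjusted p = 1.35e-10).

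The mitochondrial genome and the nuclear genes of the respiratory chain gave different counts. Of 15 mitochondrially encoded genes 3 rose: *MT-RNR1* and *MT-RNR2*, the ribosomal RNAs, and *MT-ND6*. *MT-RNR1* went from 9.42, 9.67 and 9.58 to 11.13, 11.11 and 11.17 log2 CPM, 3-fold higher, and 11 of the 15 were higher by the adjusted p alone. Of 100 nuclear genes of the respiratory chain none was called, 14 were higher and 37 lower by the adjusted p alone, and the median was -0.06. The libraries were made from polyadenylated RNA, which captures mitochondrial ribosomal RNA only in part.

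Several large classes of general cell functions held almost no calls. Of 83 cytosolic ribosomal protein genes none was called, and the calls numbered 1 of 78 mitochondrial ribosomal protein genes, 1 of 73 splicing factors, 1 of 82 proteasome genes, 1 of 66 autophagy and lysosome genes and 1 of 44 genes of G2/M and mitosis. Small shifts were present in some of them. By the adjusted p alone 53 mitochondrial ribosomal protein genes were lower and 4 higher (median -0.17), 43 cytosolic ribosomal protein genes lower and 2 higher (median -0.09), and 30 mitotic genes lower and 3 higher (median -0.15). Read against the 30.1% of all genes that were lower by this measure, the splicing factors, with 28 of 73 lower and 15 higher, and the proteasome class, with 28 of 82 lower and 19 higher, stood closer to the background. The genes of these classes that were called included *PSMD2*, a subunit of the proteasome (0.71), and *MBNL3*, a splicing regulator (0.66). Of 48 genes of DNA replication and G1/S 2 were called (4.17%): *CLSPN*, an adaptor of the checkpoint kinase *CHEK1*, fell (-1.36) and *POLE*, a DNA polymerase subunit, rose (0.65). Of 61 DNA repair genes 2 were called (3.28%): 1 rose, and *CHEK1* fell (-0.93).

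Zinc finger genes, the largest family tested, showed a slight tilt upward. Of 401 genes of the ZNF, ZSCAN, ZKSCAN and ZFP series 20 rose and 11 fell, but by the adjusted p alone 143 were higher and 40 lower, and the median was 0.10. *ZNF594* rose most among the mid-size members, from 1.69, 1.99 and 2.22 to 3.21, 3.25 and 3.25 log2 CPM. A run of 14 neighbouring genes on chromosome 19 from *ZNF85* to *LINC00662* had 13 genes above 0, 4 of them called, with a median of 0.35. The call of *ZNF85* was lost without *ZMAT3*-WT replicate 1 (0.55) or *ZMAT3*-KO replicate 3 (0.56) and with 1 CPM added (0.46). Members of this run are close paralogs, so reads may be shared between them. *ZNF320* fell by 1.79 but varied widely in *ZMAT3*-WT, with 1.95, 0.69 and -0.27 log2 CPM.

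Non-coding transcripts were called in both directions. Of 107 long intergenic RNAs 11 rose and 8 fell (17.8%), of 166 antisense and overlapping transcripts 10 rose and 14 fell (14.5%), and of 508 transcripts named only by a clone accession 40 rose and 27 fell (13.2%). *NEAT1*, the scaffold RNA of nuclear paraspeckles, was higher by 0.71 (log2). *JMJD1C-AS1* rose from 0.22, 0.38 and 0.28 to 1.71, 1.58 and 1.78 log2 CPM, and *SSTR5-AS1* fell by 1.56. The libraries were made with a stranded kit, but whether strand was used when the reads were counted is not given in the sources used here. Reads of an antisense transcript and its partner may therefore not be separated.

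The mid-size genes with the smallest adjusted p had varied functions. Those that rose were *PALLD*, *PRKACB*, *MPP7*, *RHOBTB3*, *TUBB3*, *HKDC1*, *S100A4*, *HTR7*, *ARHGAP18* and ATP11B. *MPP7*, a scaffold of cell polarity, stood at 6.30, 6.38 and 6.40 log2 CPM in *ZMAT3*-WT and at 8.04, 8.08 and 8.04 in *ZMAT3*-KO, 3.24-fold higher. *RHOBTB3*, a protein of the Golgi, rose from 6.40, 6.52 and 6.50 to 8.20, 8.29 and 8.20, and *TUBB3*, a tubulin best known from neurons, from 6.08, 6.03 and 5.99 to 7.34, 7.32 and 7.35. Those that fell were *KRT19*, *SLC2A1*, *TINAGL1*, *SYTL3*, *CCN1*, *MALT1*, *PDCD6IP*, *SYT1*, *RGS2* and EZR. *TINAGL1*, a secreted matrix protein, fell from 5.92, 5.88 and 5.90 to 4.06, 3.99 and 4.07 log2 CPM. *MALT1*, a paracaspase of NF-kB signalling, fell from 7.18, 7.19 and 7.24 to 5.96, 6.01 and 5.93, and *PDCD6IP*, a protein of membrane budding also called *ALIX*, from 7.5, 7.49 and 7.54 to 6.36, 6.40 and 6.39. *SYT1*, a synaptotagmin that couples calcium to vesicle fusion, and its relative *SYTL3* fell by 1.81 and 1.42 (log2).

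Genes next to *ZMAT3* on chromosome 3 were higher as a block. From *PIK3CA*, the nearest measured gene on the side of the chromosome end, to *CCDC50*, 12.35 Mb away, 56 of 59 measured genes were above 0, 24 rose and none fell. The median log2 change was 0.51, or 1.42-fold, with quartiles of 0.39 and 0.70, and 52 of the 59 were higher by the adjusted p alone. Taken library by library, the median of the 59 genes over the *ZMAT3*-WT mean was 0.527, 0.533 and 0.526 in *ZMAT3*-KO and 0.0063, -0.0045 and 0.0015 in *ZMAT3*-WT. The 59 genes on the other side of *ZMAT3*, from *SERP1* to *KCNMB2-AS1*, had a median of -0.10 (quartiles of -0.40 and 0.03). They began at -28.44 Mb from *ZMAT3*, so they spanned more of the chromosome than the stretch. None of them was called higher and 6 were called lower, while 19 lay above 0. By the adjusted p alone 9 were higher and 29 lower. The 35 genes between *CCDC50* and the end of the chromosome had a median of -0.11. The stretch was found by a scan of all chromosomes for 10 neighbouring genes with a median beyond 0.3 in either direction, so its size is a description. That scan gave 62 genes from *TBL1XR1* to *CCDC50*, with 57 above 0, a median of 0.505, 24 that rose and 2 that fell, one of them *ZMAT3*, and the 59 genes described above are that run without *ZMAT3* and the genes before it. The scan kept runs of at least 8 genes, some of which overlapped. The run from *TBL1XR1* to *CCDC50* was the longest of the 43 kept by number of genes, since the next held 20. On the other side of *ZMAT3* the same scan gave lower runs. They were 8 genes from *TNIK* to *ZMAT3* itself (median -0.57, 4 called lower) and 10 from *MED12L* to *C3orf33* (median -0.43, 2 called lower). With windows of 20 genes the run went from *TBL1XR1* to *XXYLT1*, with 71 genes and a median of 0.46. No DNA data of these clones were analysed here.

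**Figure D4:**
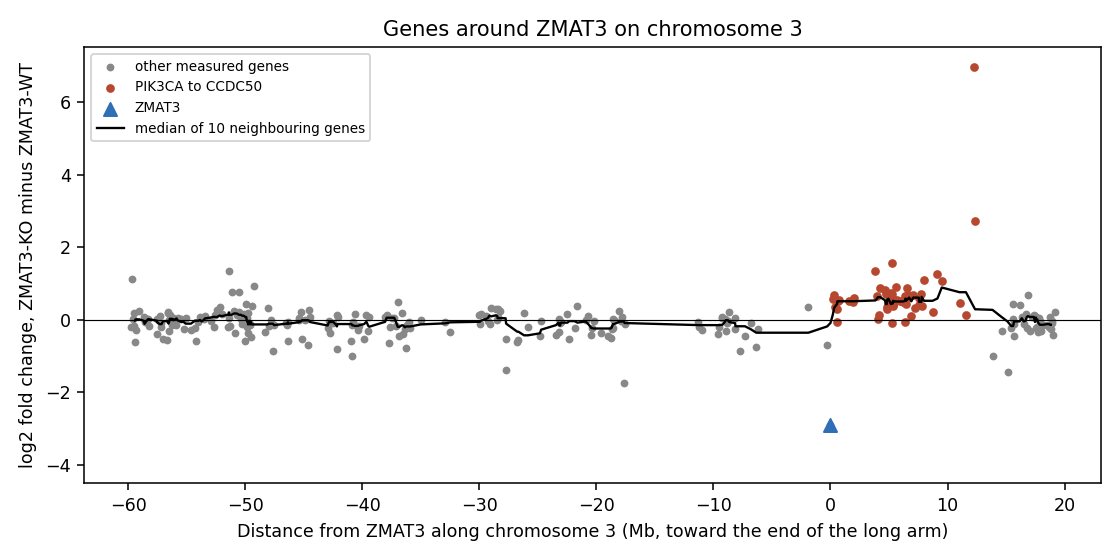
Log2 fold change between *ZMAT3*-KO and *ZMAT3*-WT of measured genes on chromosome 3 against their distance from *ZMAT3* in Mb, positive toward the end of the long arm, with the median of 10 neighbouring genes as a line. The 59 genes from *PIK3CA* to *CCDC50* (red) have a median of 0.51, and the genes compared on either side have medians of -0.10 and -0.11.

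The stretch holds genes of several functions. *PIK3CA*, the catalytic subunit of PI3 kinase, stood at 4.72, 4.82 and 4.82 log2 CPM in *ZMAT3*-WT and at 5.37, 5.36 and 5.35 in *ZMAT3*-KO, 1.49-fold higher and so just under the threshold, which it passed without *ZMAT3*-WT replicate 2 or 3 (0.59 on the log2 scale in both cases). *FXR1*, an RNA-binding protein, went from 8.0, 8.04 and 8.04 to 8.49, 8.54 and 8.56. *DVL3*, which relays Wnt signals, was higher by 0.74, *AP2M1*, a subunit of the clathrin adaptor, by 0.69 and *IGF2BP2*, an RNA-binding protein, by 0.63. *ATP11B*, a lipid flippase, rose more, from 5.45, 5.48 and 5.53 to 6.84, 6.87 and 6.78 log2 CPM (2.54-fold). At the far end *UTS2B* and *CCDC50* stood apart from the rest: *CCDC50* rose from 5.35, 5.42 and 5.37 to 8.10, 8.10 and 8.10, and *UTS2B*, a peptide hormone gene, from -3.97, -3.97 and -2.62 to 3.43, 3.35 and 3.51. *ACTL6A*, a subunit of chromatin remodellers, did not pass, with 6.22, 6.19 and 6.22 against 6.15, 6.10 and 6.16. Called genes of the stretch also sit in the classes above. The only called proteasome gene, *PSMD2*, is one, and so are *EIF4A2*, 1 of 2 called translation genes, *EPHB3* among the Eph receptors, *ETV5* among the ERK feedback genes and ETS factors, and the glycosyltransferases *ST6GAL1* and B3GNT5. Of the 535 mid-size genes that rose, 22, or 4.11%, were from the stretch.

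Some other runs of neighbours overlapped the families described above. A run of 20 measured genes on chromosome 7 ending in *HOXA10* (median -0.37), 1 of 15 on chromosome 17 from *SP2-AS1* to *LINC02086* around the HOXB cluster (-0.43), and the keratin regions of chromosome 17 (17 genes from *CDC6* to *FKBP10*, -0.34) and chromosome 12 (16 genes from *SLC4A8* to *RARG*, -0.36) were lower. A run of 12 on chromosome 6 from *PTPRK* to *MOXD1* was higher, with a median of 0.58.

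Because AP-1 genes were called in both directions, the letters TGACTCA, the core that AP-1 dimers recognise, and TGAGTCA, the same core on the other strand, were looked for in the 250 bases before the start of each gene in RefSeq promoters of GRCh38.p14. The window held them in 2.36% of 9730 measured genes with a promoter, in 5.37% of 410 genes that rose, in 3.46% of 376 that fell and in 2.18% of 8944 that were not called; over all 27305 promoters the share was 4.16%. The promoters with a match among mid-size genes that changed most are shown so that the position of the motif can be seen, as 90 bases on the strand of the gene with the motif in capitals.
GPNMB, chr7:23246599-23246688, plus strand: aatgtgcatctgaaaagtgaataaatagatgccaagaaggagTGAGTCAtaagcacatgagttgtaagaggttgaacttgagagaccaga
EMP1, chr12:13196509-13196598, plus strand: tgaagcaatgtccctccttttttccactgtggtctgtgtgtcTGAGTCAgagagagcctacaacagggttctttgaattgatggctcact
CPA4, chr7:130293071-130293160, plus strand: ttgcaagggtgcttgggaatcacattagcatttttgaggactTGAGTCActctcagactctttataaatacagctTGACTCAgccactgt
*GPNMB*, a transmembrane glycoprotein, rose from 0.71, 0.68 and 0.59 to 2.59, 2.61 and 2.61 log2 CPM. *EMP1*, an epithelial membrane protein, fell from 5.17, 5.25 and 5.26 to 3.41, 3.51 and 3.28, and *CPA4*, a secreted carboxypeptidase, from 3.37, 3.33 and 3.55 to 1.65, 1.76 and 1.55. The motif thus occurred before genes of both directions, and a match of letters is not evidence that a factor was bound.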

How the data were processed

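RNA of the *ZMAT3*-WT and *ZMAT3*-KO cultures was captured on oligo(dT) beads and sequenced, and per the methods the authors used STAR with hg38 for alignment and RSEM for gene levels. What they deposited is log2 CPM, normalised by the authors so that the 6 libraries share 1 distribution; the step is not given in the sources used here, and depth cannot be recovered. The 4 columns of the authors' own fold changes and p-values were not used. The siRNA samples were not analysed here. Genotypes came from the sample labels.

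Groups were compared in R 4.3.3 with limma 3.58.1 (two-sided moderated test whose prior variance follows mean level, p-values adjusted by Benjamini-Hochberg across 13029 rows), without filter, pseudocount or covariate. An exact permutation test of 3 against 3 cannot go below p = 0.1. The fit was tested on simulated data. Log2 changes are *ZMAT3*-KO minus *ZMAT3*-WT. Classes came from symbol patterns or hand-written lists, and no set test was run. Some genes and 1 class are not reported here. Genes and classes were chosen with earlier results of these data known, and the scan along chromosomes after the data were seen. The rule for naming covered classes with at least 3 mid-size members, and in them members whose groups do not overlap. It took the 2 that rose most and the 2 that fell most (1 each for symbol families). It also took the 10 smallest adjusted p in each direction and members of classes with few calls. Not every gene so taken is described, and further members named beside them were chosen after their values were seen. Positions were taken by symbol from GENCODE release 44 on hg38 for 12112 genes (93.0%), a later release than the authors' own, and 19 symbols had been turned into dates. Guides were matched to hg38 on both strands. Alternatives were a filter at a mean log2 CPM of 0, 1 CPM added before the log, a block for the replicate number, centring on the median gene, a constant prior variance, limma treat against 1.2-fold, a band of 2 to 4-fold, and leaving out each library. Python 3.11.15 with pandas 2.3.3, numpy 2.4.6 and matplotlib 3.10.9 was used.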

Additional observations from a re-analysis of the deposited data

How the results depend on the processing

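The count of 1168 called genes was 1001 with a filter at a mean log2 CPM of 0, 785 with 1 CPM added (782 of them shared with the 1168), 1168 after centring, 1152 with a constant prior variance and 1026 with limma treat, and it ranged from 1154 to 1201 when 1 library was left out. Centring could change little, since the library medians already lay between 4.782 and 4.784 log2 CPM. Mid-size genes that rose then numbered 525 to 548, and those that fell 510 to 541. With the band set at 2 to 4-fold, 136 genes rose and 144 fell in place of 535 and 517. Without the genes of the chromosome 3 stretch, an alternative chosen after seeing the data, 513 rose and 517 fell. Of 507 genes, those described and those called in a class, none turned its direction with centring, a constant prior variance, the block, limma treat, 1 CPM added or a library left out, nor did the 428 that the filter kept; 164 lost their call with 1 CPM added, 70 with limma treat, 7 with a constant prior variance, and 25 to 43 when a library was left out, and *PIK3CA* passed the fold threshold without *ZMAT3*-WT replicate 2 (0.59) or 3 (0.59). The cause was not tested. Replicate numbers did not pair the samples: deviations of same-numbered libraries correlated at r = -0.0652, 0.0598 and -0.102 over 12767 genes, and with the replicate number as a block 1178 genes were called, all 1168 among them. Without counts, small differences in weakly expressed genes cannot be set against counting error.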

Other observations

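Lists chosen after the values had been seen carry no test and are given as descriptions. Of 38 immediate early genes, which cells transcribe within minutes of a stimulus, 18 were called lower and 4 higher in *ZMAT3*-KO, with a median log2 change of -0.58 against -0.0052 over all genes. *EGR2* stood at 2.60, 2.25 and 2.05 log2 CPM in *ZMAT3*-WT and at 0.53, 0.31 and 0.34 in *ZMAT3*-KO, and *ZFP36*, which speeds the decay of AU-rich transcripts, at 6.02, 5.74 and 5.81 against 4.94, 4.89 and 5.00. *ZFP36L1*, a relative of *ZFP36*, was called in the opposite direction, at 7.19, 7.25 and 7.25 against 8.14, 8.16 and 8.16. Several of these genes also belong to the dual specificity phosphatases and to AP-1, and the time between the last change of medium and harvest is not given in the sources used here.

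Of 17 targets of YAP and TEAD, factors that respond to cell shape and density, 7 were called lower and 1 higher, with a median of -0.29. *CCN1* stood at 6.87, 6.81 and 6.68 log2 CPM in *ZMAT3*-WT and at 4.93, 4.99 and 4.97 in *ZMAT3*-KO, and *CCN2* at 4.37, 4.47 and 4.14 against 0.56, 0.20 and 0.92. *CRIM1* (-1.36), *F3* (-1.29), *NUAK2* (-1.24), *AMOTL2* (-0.69) and *DOCK5* (-0.68) were lower, and *CCDC80* was higher by 1.06, a call lost with 1 CPM added (0.47). Cell density at harvest was not recorded in the labels.

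Of 16 retinoid enzymes, carriers and receptors 5 were called lower and none higher, with a median of -0.33. Enzymes that make retinoic acid (*ALDH1A3*, log2 change -2.67) and that degrade it (*CYP26A1*, -1.90) were both lower, as were the retinal reductase *DHRS3* (-1.15), the retinoid-responsive transglutaminase *TGM2* (-0.74) and the binding protein *CRABP2* (-0.60). *CRABP2* stood at the edge of the threshold, with changes of -0.56 and -0.57 without *ZMAT3*-WT replicate 1 and without *ZMAT3*-KO replicate 2.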
